A study of Drosophila melanogaster with 16 samples.

Results

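The comparison described here is that of the deletion line *208-ΔA* with the wild-type line DGRP_208, from which it was made. It rests on 8 of the 16 libraries of the study, chosen by line: 4 of *208-ΔA* and 4 of DGRP_208, with 2 of females and 2 of males in each. DGRP_208 is an inbred line of *Drosophila melanogaster*, and *208-ΔA* is a homozygous *Uhg4* deletion made in it with CRISPR-Cas9 that lacks the promoter region and exon 1 of the gene. Each library came from 30 whole flies of 3 to 5 days, and the total RNA was depleted of ribosomal RNA before sequencing. The remaining 8 libraries come from *208-ΔF* and *208-ΔG*, a pair of further deletion lines of the same kind and background, and entered the fit as a source of the spread. *208-ΔA* is 1 line, so what the deletion does and what else this line carries cannot be told apart in this comparison. The labels number the libraries as replicates without saying that the flies came from separate cultures, so the p-values measure the spread between these libraries.

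*Uhg4* is a long noncoding RNA gene whose introns carry small nucleolar RNAs (snoRNAs). Genes of this kind are transcribed and spliced like others, and the snoRNAs are trimmed out of the excised introns and then guide chemical modification of ribosomal RNA. In the fly, stress and infection are met by secreted peptides from the fat body, the tissue that serves as liver and adipose store, and by hemocytes, the blood cells. The Turandot proteins are secreted stress peptides of this kind and respond to JAK/STAT and other stress pathways.

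Counts of the 8 libraries summed to between 15194289 and 51954693 reads. Levels below are CPM, the reads of a gene scaled to a common library size that was corrected for composition by TMM, and tests are edgeR's quasi-likelihood tests with Benjamini-Hochberg adjustment over 16212 genes that had a median count of at least 2. An adjusted p under 0.05 counts as a call. The libraries differed in ways that line and sex do not describe. As a measure, the median level of 186 chemoreceptor genes, which are silent in most cells, was 0.350 to 0.930 RPKM, the CPM per kilobase of gene length, in *208-ΔA*, against 1.96 and 0.613 in DGRP_208 females and 0.601 and 3.37 in DGRP_208 males. The male seminal fluid gene *Mst57Db* stood at 1410 to 2893 CPM in the males of both lines and at 0.844 to 1.96 CPM in the females. *208-ΔA* male replicate 2 also had *Yp1*, which encodes a yolk protein of females, at 183 CPM, against 3.98 to 10.1 CPM in the other males of both lines. The comparison was therefore also fitted with the chemoreceptor level as a covariate, without each library in turn, and without both *208-ΔA* male replicate 2 and DGRP_208 male replicate 2.

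The deleted gene came first. *Uhg4* lies on chromosome arm 2R of the dm6 genome, from position 9095273 to 9097312 on the plus strand, with 8 exons. Its level was 0.490 and 0.445 CPM in *208-ΔA* females and 6.66 and 6.67 CPM in DGRP_208 females. In males it was 0.992 and 0.773 CPM in *208-ΔA* and 1.89 and 0.974 CPM in DGRP_208. The female libraries of the lines were thus far apart, whereas in males the *208-ΔA* level of 0.992 CPM exceeded the lower DGRP_208 level. In log2 units the difference was -3.83 ± 0.61 (SE; adjusted p = 0.0955) in females, -0.70 ± 0.54 (adjusted p = 0.531) in males and -2.27 ± 0.40 (adjusted p = 0.0737) with the sexes averaged, so *Uhg4* was not called. With the chemoreceptor level as covariate the averaged value was -2.61 (adjusted p = 0.00751). Exon 1, the part removed, has 67 of the 491 bases over which reads were counted, and the table does not separate reads of the other exons.

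Each of the 7 introns of *Uhg4* carries 1 annotated snoRNA. *snoRNA:Or-aca5*, an orphan snoRNA of the H/ACA class in intron 2 (2R, 9095685 to 9095832), was at 0.0817, 0.318, 0.174 and 0.422 CPM in the 4 libraries of *208-ΔA*, or 1, 10, 7 and 18 reads. In DGRP_208 it was at 125 and 108 CPM in females and at 36.04 and 21.1 CPM in males. No library of *208-ΔA* came near the lowest of DGRP_208. In log2 units the difference was -7.75 ± 0.82 (SE; adjusted p = 0.0033), a level 216-fold lower on average. *snoRNA:Psi28S-2949*, which guides the change of a uridine of 28S ribosomal RNA to pseudouridine, lies in intron 1. It had 1, 5, 2 and 0 reads in *208-ΔA* and 116, 40, 11 and 3 reads in DGRP_208, and its log2 difference of -3.55 did not pass (adjusted p = 0.17). The snoRNAs of introns 3 to 7 were too rare to test: *snoRNA:Or-CD2* had 0 reads in all 8 libraries, while the others, which guide methylation of 28S ribosomal RNA, had at most 11 reads in any of them. Of the 10 genes of the locus list, 5 were tested.

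The neighbours of *Uhg4* differed from each other. *Boot* (Bootlegger, which acts in the nuclear export of piRNA precursors in the germ line) lies on the minus strand, with 614 bases between it and *Uhg4*. It was at 3.35 and 3.24 CPM in *208-ΔA* females and at 39.5 and 61.7 CPM in DGRP_208 females. In males the values were 4.51 and 4.08 CPM against 3.64 and 6.05 CPM. The female libraries were more than an order of magnitude apart, and the male libraries of *208-ΔA* sat between those of DGRP_208. *Boot* was called in females (-3.94 ± 0.47 in log2 units, adjusted p = 0.0274) and with the sexes averaged (-2.06, adjusted p = 0.0354). The difference between its values in males and females was 3.77 on the log2 scale (standard error 0.61) and did not pass (adjusted p = 0.326). *Ctu1*, which encodes a tRNA thiolation enzyme and overlaps the end of *Uhg4* on the other strand, had a log2 fold change of -0.38 (adjusted p = 0.419).

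**Figure D1:**
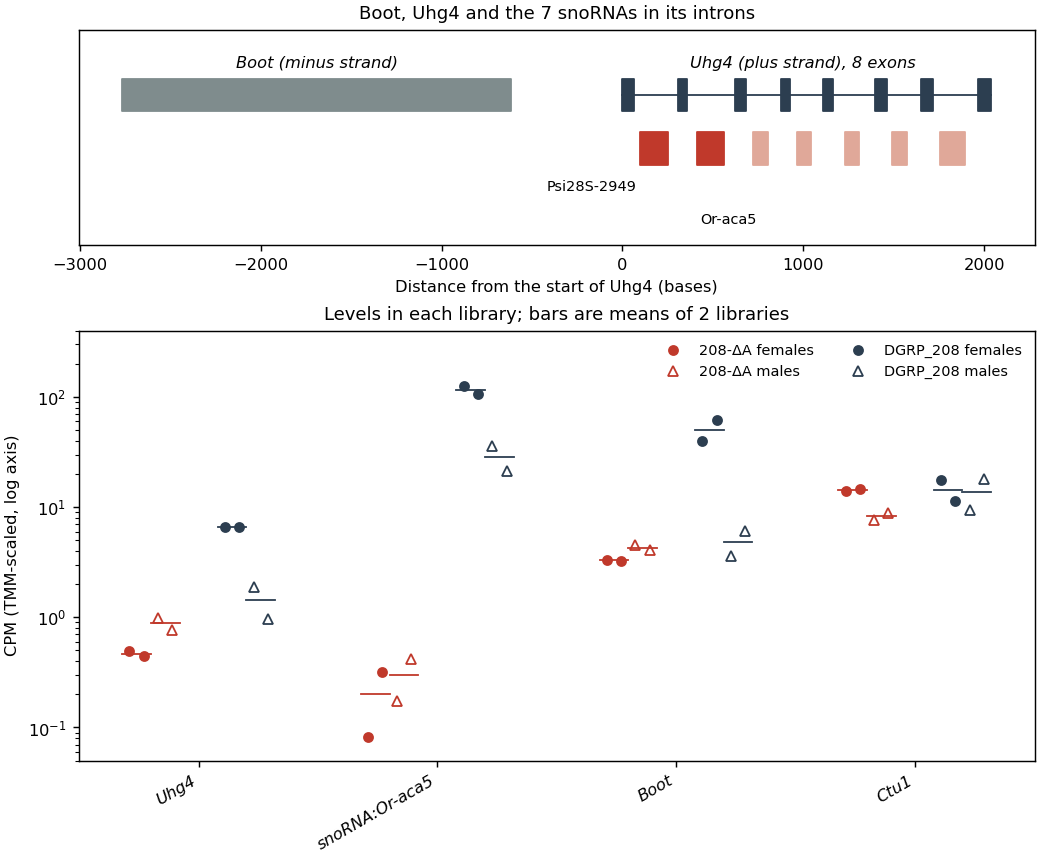
The upper panel maps *Boot*, the exons of *Uhg4* and its 7 intronic snoRNAs by distance from the start of *Uhg4* in bases, and the lower panel shows the level of 4 genes in each library (CPM, log axis, bars for the mean of 2 libraries). *snoRNA:Or-aca5* was under 0.43 CPM in every *208-ΔA* library and over 21 CPM in every DGRP_208 library, while *Boot* was apart in females and overlapped in males.

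Across all genes, *208-ΔA* differed from DGRP_208 in 27 of 16212 genes with the sexes averaged (0.167%). Of these, 19 were higher (0.117%) and 8 were lower (0.0493%). All 4 *208-ΔA* libraries lay above all 4 DGRP_208 libraries for 18 of the 19 higher genes, with *Elal* as the exception, and below them for 6 of the 8 lower genes, with *Boot* and *CG15022* as the exceptions. Such a separation was seen for 2.08% of all genes upwards and 1.40% downwards. At an unadjusted p under 0.05 the count was 2483 genes (15.3%), with 4.96% of all genes higher and 10.4% lower, and 10 of the 27 called genes shared the highest adjusted p of 0.0448. In each of the 16 refits that left out 1 library, 7 genes passed: *TotM*, *TotA*, *TotC*, *Diedel*, *CtsL3*, *BaraB* and *snoRNA:Or-aca5*. The others passed in 14 of them (*CG43133* and *TotX*) down to 1 (*CG30089* and *Drip*), so that the count fell to 9 without *208-ΔA* female replicate 1, *208-ΔA* male replicate 2 or DGRP_208 female replicate 2. It was 10 without DGRP_208 female replicate 1, 12 without *208-ΔA* male replicate 1, 13 without DGRP_208 male replicate 2 and 13 to 15 without any 1 male library of *208-ΔF* or *208-ΔG*. Without both *208-ΔA* male replicate 2 and DGRP_208 male replicate 2 it was 4.

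Among the higher genes the Turandot family stood first. Of 8 members tested, 5 were called higher and none lower, against 0.117% and 0.0493% of all genes. Of the 8, 7 had a positive and 1 a negative fold change. The median log2 fold change was 2.96 over the family against -0.02 over all genes. The summed level of the family was 2739 to 7832 CPM in *208-ΔA* and 317 to 590 CPM in DGRP_208. *TotM* was at 330 and 516 CPM in *208-ΔA* females and at 587 and 902 CPM in its males. In DGRP_208 it was at 14.3 and 22.4 CPM in females and at 11.4 and 9.83 CPM in males. The lowest *208-ΔA* library thus held more *TotM* than any DGRP_208 library, and the fold change with the sexes averaged was 40.3 (log2 5.33 ± 0.39, adjusted p = 0.000414).

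*TotA* and *TotC*, which lie close together on 3R (20871036 to 20871700 and 20872988 to 20873580), were the most abundant members. As CPM per kilobase of gene length (RPKM with the TMM correction), *TotA* averaged 2285 RPKM in *208-ΔA* females and 5144 RPKM in its males. *TotC* averaged 2417 and 4823 RPKM, whereas *TotM* averaged 767 and 1349 RPKM. *TotA* had 1095, 1552, 2394 and 3562 CPM in the *208-ΔA* libraries and 128, 203, 173 and 143 CPM in those of DGRP_208, a fold change of 12.3 (log2 3.62 ± 0.28, adjusted p = 0.000414). *TotC* had 1140, 1422, 2194 and 2918 CPM against 187, 329, 189 and 130 CPM, a fold change of 8.91 (log2 3.16 ± 0.29, adjusted p = 0.00109). In both genes the males of *208-ΔA* lay above its females, while the DGRP_208 libraries showed no such order in either gene.

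*TotX*, also on 3R, rose 9.73-fold (168.9 to 440 CPM against 16.8 to 36.7 CPM, adjusted p = 0.00766), and *TotB* rose 6.82-fold from a low level (3.76 to 6.79 CPM against 0.443 to 1.10 CPM, adjusted p = 0.0448). *TotX* overlaps the gene *Grik* on the other strand. The other members were rare in both lines and were not called: *TotE* had a log2 fold change of 0.35, *TotZ* of 0.14 and *TotF* of -1.28. The number of called members was 2 without both *208-ΔA* male replicate 2 and DGRP_208 male replicate 2, and 5 with the chemoreceptor level as covariate. Markers of the fat body, where Turandot peptides are made, summed to 6893 to 9138 CPM in *208-ΔA* and 2873 to 4872 CPM in DGRP_208. The median log2 fold change over the 15 genes was 0.24, with 12 positive and 3 negative values. Only 1 of the 15 had all 4 *208-ΔA* libraries above all 4 DGRP_208 libraries, so the separated sum does not hold for most members. None of these markers was called, and *apolpp*, the lipid carrier of the blood, came nearest to a call (1.66, adjusted p = 0.0936). At an unadjusted p under 0.05 there were 4 (26.7%, against 15.3% of all genes). In whole flies, more cells of a type and more RNA per cell cannot be told apart. The part of the fat body markers in the Turandot values was not tested.

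*Diedel*, a small secreted immune protein that is induced through JAK/STAT signalling, had the largest rise. It was at 45.1 and 103.6 CPM in *208-ΔA* females and at 107 and 194 CPM in its males, against 3.26, 2.76, 1.603 and 2.48 CPM in the DGRP_208 libraries. The groups did not overlap, and the fold change was 42.6 (log2 5.41 ± 0.44, adjusted p = 0.00042). *Diedel* was the only called gene of 12 in the JAK/STAT list, whose median log2 fold change was 0.05. The ligand *upd3* was at -0.64, the receptor *dome* at -0.18, the kinase *hop* at 0.03, the transcription factor *Stat92E* at 0.41 and the feedback inhibitor *Socs36E* at 0.07, and none of these passed.

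Of 64 genes of the humoral immune response, 2 were called and both rose, while 54 had a positive fold change, against 48.4% of all genes. At an unadjusted p under 0.05 there were 34 (53.1%, against 15.3% of all genes), 30 of them upwards. The median log2 fold change was 0.51. *BaraB*, a member of the Baramicin family of immune peptides, was at 26.6, 24.1, 56.4 and 48.0 CPM in *208-ΔA* and at 6.68, 10.7, 11.1 and 7.76 CPM in DGRP_208. All *208-ΔA* libraries were above all DGRP_208 libraries, and the fold change was 4.02 (log2 2.01 ± 0.19, adjusted p = 0.00164). *Tep2*, a thioester protein that marks microbes, was at 262 to 324 CPM against 85.9 to 136 CPM (2.48-fold, adjusted p = 0.0103). It overlaps *CG43235* on the other strand. The antimicrobial peptide genes *Mtk* (log2 fold change 1.48), *DptB* (1.93) and *Drs* (1.21) were not called (adjusted p = 0.0946, 0.111 and 0.325). Of the 10 genes of the list with a negative fold change, *PGRP-SB2* was the lowest (-1.60, adjusted p = 0.325). With DESeq2, 12 of the 64 genes were called, all higher, and with edgeR on the libraries of the 2 lines alone, or without both male libraries named above, 0 were called. *BaraB* lies on 2R, 161 kb from *Uhg4*. With *Boot* and *snoRNA:Or-aca5*, which lies within *Uhg4*, it was 1 of 3 genes called among 163 tested within 500 kb. Of all genes tested, 0.167% were called. At an unadjusted p under 0.05 there were 21 of the 163 (12.9%, against 15.3% of all genes). Their median log2 fold change over the 163 was -0.023.

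**Figure D2:**
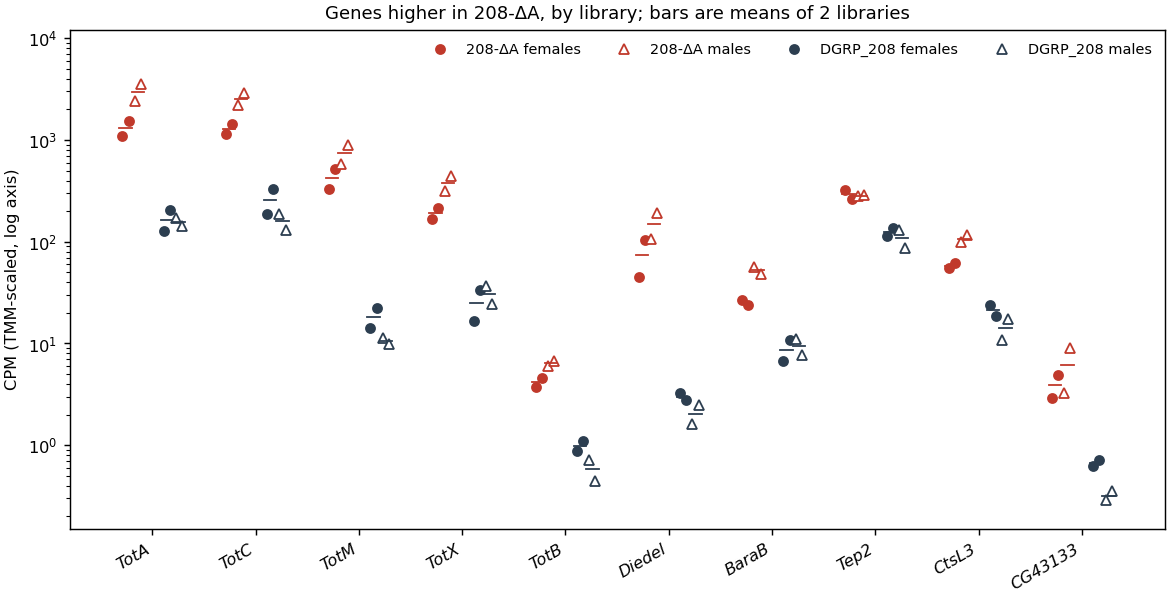
The level of 10 genes that rose in *208-ΔA*, in each library (CPM, log axis), with circles for females, triangles for males and bars for the mean of 2 libraries. For each gene the 4 *208-ΔA* libraries lie above the 4 DGRP_208 libraries, as for *Diedel* with 45.1 CPM or more against 3.26 CPM or less.

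A pair of hemocyte genes rose. *Hml* (hemolectin, a clotting protein of hemocytes) was at 311 to 356 CPM in *208-ΔA* and 121 to 233 CPM in DGRP_208, a fold change of 1.89 (log2 0.92 ± 0.15, adjusted p = 0.0448). *Sr-CI*, a scavenger receptor of the same cells, was at 42.8 to 52.9 CPM against 19.9 to 33.2 CPM (1.87-fold, adjusted p = 0.0354). These were 2 of the 14 hemocyte markers tested, whose median log2 fold change was 0.41. At an unadjusted p under 0.05, 6 markers were higher and 1 lower, against 4.96% and 10.4% of all genes. Of the list, 10 markers had a positive and 4 a negative fold change. The phagocytosis receptors *eater* (0.87) and *NimC1* (0.48) were not called. The melanization enzymes *PPO1* (-0.45) and *PPO2* (-0.97) were not called either, nor was *lz* (-1.69), the largest change of the list in size. The list summed to 2152 to 3097 CPM in *208-ΔA* and 1270 to 2784 CPM in DGRP_208, so the groups overlapped, and whether the calls reflect hemocyte number was not tested.

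The remaining higher genes had various roles. *CtsL3*, a cathepsin-like cysteine protease, was at 54.7 and 61.6 CPM in *208-ΔA* females, 98.7 and 116 CPM in its males, 24.1 and 18.5 CPM in DGRP_208 females and 10.9 and 17.2 CPM in DGRP_208 males. All *208-ΔA* libraries were above all DGRP_208 libraries (4.56-fold, log2 2.19 ± 0.17, adjusted p = 0.000414), and it was the only called gene of the 9 cathepsins tested. *CG43133*, an uncharacterized protein-coding gene on the X chromosome, was rare in DGRP_208 (0.286 to 0.717 CPM) and was at 2.94 to 9.04 CPM in *208-ΔA* (10.6-fold, adjusted p = 0.00699). *Arc1*, which encodes a capsid-forming protein that carries RNA between neurons and muscle, was at 930 to 1125 CPM against 249 to 445 CPM (2.74-fold, adjusted p = 0.0448). The pseudogene *CR10102*, an *Arc1* relative that adjoins it on 2R (14360433 to 14361780), rose 2.38-fold (56.4 to 66.3 CPM against 20.7 to 30.0 CPM, adjusted p = 0.0162). Reads of related sequences are counted only where they align to a single place, so the split between such copies is uncertain, and the same holds for the Turandot genes.

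*tim*, the clock gene timeless, was at 173 to 218 CPM in *208-ΔA* and 93.1 to 114 CPM in DGRP_208, without overlap (1.99-fold, adjusted p = 0.00766). It was the only called gene of 14 in the clock list, in which *Clk*, a transcriptional activator of *tim*, had a log2 fold change of 0.49 (adjusted p = 0.325). The time of day at which flies were frozen was not analysed here. *Ilp6*, an insulin-like peptide of the fat body, was at 54.6 to 57.1 CPM against 25.4 to 33.2 CPM (1.85-fold, adjusted p = 0.0448), the only called gene of 21 in the insulin list. *Elal*, which encodes an elastin-like protein, rose 2.02-fold with overlapping libraries (57.3 to 128 CPM against 28.0 to 61.1 CPM, adjusted p = 0.0448), and it lost its call with the chemoreceptor level as covariate (adjusted p = 0.0786). *CG15784* (2.26-fold) and *CG43968* (2.54-fold), both uncharacterized, rose too (adjusted p = 0.02 and 0.0429).

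Besides *snoRNA:Or-aca5* and *Boot*, 6 genes fell. *Srg3*, a gene induced through the STING pathway of antiviral defence, was at 6.21 and 9.21 CPM in *208-ΔA* females and at 38.7 and 40.8 CPM in DGRP_208 females. In males it was at 9.32 and 11.2 CPM against 16.3 and 26.4 CPM. Each *208-ΔA* library was below each DGRP_208 library, and the log2 difference was -1.71 ± 0.21 (adjusted p = 0.00841), and in females -2.36 (adjusted p = 0.0274). *lncRNA:CR32368*, a long noncoding RNA on 3L, was at 2.61, 2.54, 2.16 and 1.55 CPM in *208-ΔA* and at 10.2, 30.6, 9.82 and 9.33 CPM in DGRP_208 (-2.68 ± 0.42 in log2 units, adjusted p = 0.0448). *Drip*, which encodes an aquaporin of water transport, was at 25.97, 22.8, 27.4 and 21.5 CPM against 46.6, 55.0, 70.9 and 40.9 CPM (-1.13 ± 0.18 in log2 units, adjusted p = 0.0448). *Drip* overlaps *CG7763* on the other strand.

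*CG30089*, an uncharacterized gene, was at 63.5 to 78.8 CPM in *208-ΔA* and 123 to 209 CPM in DGRP_208 (log2 fold change -1.17, adjusted p = 0.0448). *Cpr78Cc*, a structural protein of the cuticle, was at 0.735 and 1.14 CPM in *208-ΔA* females and 8.86 and 6.89 CPM in DGRP_208 females, and at 1.98 and 2.32 CPM against 3.64 and 4.96 CPM in males (-2.02, adjusted p = 0.0448). *CG15022*, of unknown function, was at 0.653 and 0.540 CPM in *208-ΔA* females and at 14.2 and 12.2 CPM in DGRP_208 females, while the males overlapped (0.595 and 1.03 CPM against 0.830 and 1.71 CPM). Its log2 fold change was -2.56 with the sexes averaged (adjusted p = 0.0448) and -4.47 in females (adjusted p = 0.037).

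The lines were then compared within each sex. In females 8 genes were called (0.0493%): *TotM*, *TotA* and *Diedel* rose (0.0185% of all genes were called higher), and *Boot*, *Lcp65Ag2*, *Srg3*, *snoRNA:Or-aca5* and *CG15022* fell (0.0308% were called lower). In males 7 genes were called (0.0432%), and all of them rose: *CtsL3*, *TotM*, *TotA*, *Diedel*, *TotC*, *BaraB* and *CG43133*. The count of genes called lower in males was 0 in this edgeR fit, where 1583 genes had an unadjusted p under 0.05 in either direction. Other edgeR fits called 2 lower with the chemoreceptor covariate and 1 with scaling to library size alone, with the libraries of the 2 lines alone or without either *208-ΔG* female. DESeq2 called 33 lower, limma-voom 1 and the linear model on GeTMM values 1. The male count rested on both DGRP_208 males, since without replicate 1 or without replicate 2 of them it was 1 gene, and the female count was 0 without either DGRP_208 female, without *208-ΔA* female replicate 2 or without any 1 male library of *208-ΔF* or *208-ΔG*. Of the 19 genes that rose with the sexes averaged, 17 had the larger log2 fold change in males, and of the 8 that fell, 7 had the more negative value in females. In both cases the value in males was the higher, as it was for 55.5% of all genes. *TotM*, for example, rose 23.1-fold in females and 70.1-fold in males. *TotC* rose 16.01-fold in males (adjusted p = 0.00472) and had a log2 fold change of 2.31 in females (adjusted p = 0.123).

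The difference between the sexes was tested itself, and the edgeR fit called no gene (468 genes at an unadjusted p under 0.05), nor did limma-voom. DESeq2 called 12, while the linear model on GeTMM values and edgeR with the chemoreceptor covariate called 9 each. In the edgeR fit without that covariate the smallest adjusted p, 0.127, was that of *Lcp65Ag2*, a cuticle protein gene known from larvae. It was at 0.490 and 1.05 CPM in *208-ΔA* females and at 19.4 and 13.8 CPM in DGRP_208 females, but at 0.793 and 1.64 CPM in *208-ΔA* males and 0.515 and 0.384 CPM in DGRP_208 males. The DGRP_208 females were thus the group that stood out, and the log2 difference was -4.38 ± 0.55 in females (adjusted p = 0.0274) and 1.43 in males (adjusted p = 0.447). The same order was seen in the values of *Boot* and *CG15022*, and in *CG15023* (0.980 and 1.11 CPM against 8.37 and 10.6 CPM in females, 2.60 and 1.15 CPM against 1.03 and 0.738 CPM in males). The spliceosomal RNA genes *snRNA:U5:38ABb* and *snRNA:U5:23D* had log2 fold changes of -2.10 and -1.85 in females and 2.39 and 2.30 in males, none of which was called.

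**Figure D3:**
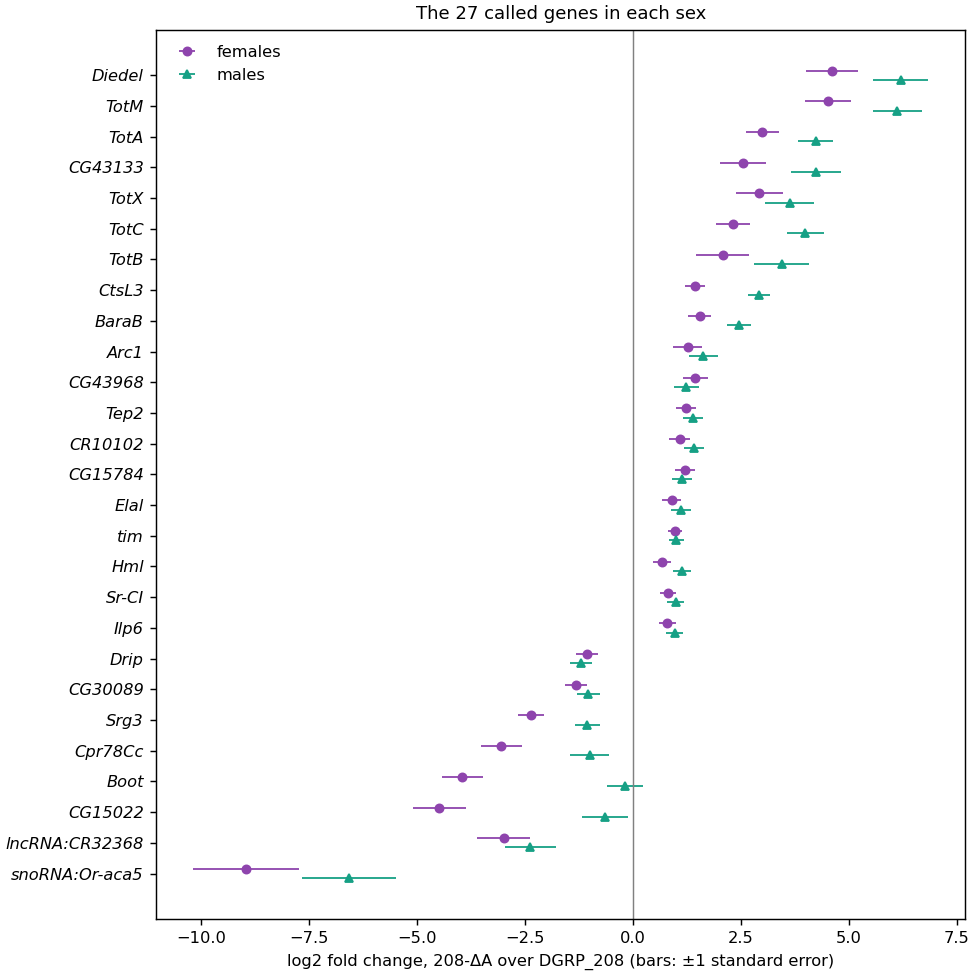
The log2 fold change of *208-ΔA* over DGRP_208 in females (circles) and males (triangles) for the 27 genes called with the sexes averaged, with bars of 1 standard error. The rises were larger in males for 17 of 19 genes, and *Boot* had a value of -3.94 in females and -0.17 in males.

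Gene lists were read beside the single genes, without a test of any list as a set. Of 118 cuticle genes tested, 1 was called (*Cpr78Cc*, lower) and 97 had a negative fold change, against 51.6% of all genes, with a median of -1.39 against -0.02 over all genes. At an unadjusted p under 0.05, 56 were lower and 7 higher, against 10.4% and 4.96% of all genes. The summed level of the list, which its abundant members set, overlapped between the lines, at 2257 to 4775 CPM in *208-ΔA* and 2349 to 3505 CPM in DGRP_208. The Tweedle proteins of the cuticle, *TwdlB*, *TwdlD* and *TwdlP*, had log2 fold changes of -3.21, -2.50 and -2.96 without passing (adjusted p = 0.078, 0.078 and 0.066). In females *TwdlD* was at 0.490 and 0.889 CPM in *208-ΔA* and 13.2 and 12.1 CPM in DGRP_208. The chemoreceptor genes, of which 176 were tested and none called, had a median of -0.95, and with their level as covariate the cuticle median was -0.34. Without DGRP_208 male replicate 2, the library with the highest chemoreceptor level of the 8, the cuticle median was -0.68, and without DGRP_208 female replicate 1 it was -0.90. The part of the library property that they measure in the cuticle values was not tested further. All 9 chorion genes of the eggshell had a negative fold change (median -1.85). None of them was called by edgeR, and DESeq2 called 1. At an unadjusted p under 0.05 there were 5 with the sexes averaged (55.6%, against 15.3% of all genes). In females the chorion median was -1.77, and none of the 9 had an unadjusted p under 0.05. In males it was -1.955, with 3 such genes. The list summed to only 10.2 and 19.6 CPM in *208-ΔA* males and 21.6 and 88.6 CPM in DGRP_208 males. With the sexes averaged, the chorion median was -1.01 without DGRP_208 male replicate 2. *Cp36*, as an example, was at 52.7 and 83.8 CPM in *208-ΔA* females and 121 and 273 CPM in DGRP_208 females (log2 fold change -1.69 with the sexes averaged, adjusted p = 0.325). The 13 vitelline membrane genes, made at an earlier stage of the eggshell, had a median of 0.27. At an unadjusted p under 0.05 there were 2 (15.4%, against 15.3% of all genes), both lower. In females, which make these RNAs, the median was 0.04. *208-ΔA* male replicate 2 held 369 CPM of the list, against 34.9 CPM in *208-ΔA* male replicate 1.

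Genes of the ribosome and its assembly were not called. Of 87 ribosomal protein genes, 81 had a positive fold change, against 48.4% of all genes, with a median of 0.47. At an unadjusted p under 0.05 there were 2 (2.3%, against 15.3% of all genes). Leaving out DGRP_208 male replicate 2 gave a median of 0.273, and leaving out the other DGRP_208 male gave 0.77. The median was 0.17 with the chemoreceptor covariate and 0.159 without both *208-ΔA* male replicate 2 and DGRP_208 male replicate 2. Of 172 snoRNAs tested, *snoRNA:Or-aca5* was the only one called, and 121 had a positive fold change (median 0.26), against 48.4% of all genes. The sign of this median was not stable: it was -0.044 without *208-ΔA* female replicate 1, 0.013 without *208-ΔA* male replicate 2, 0.069 without DGRP_208 male replicate 2, 0.559 when the other DGRP_208 male was left out, -0.059 with the chemoreceptor covariate and -0.117 without both *208-ΔA* male replicate 2 and DGRP_208 male replicate 2. The median was 0.457 without *208-ΔA* female replicate 2 and 0.407 without *208-ΔA* male replicate 1. In males 152 of them were positive, with a median of 1.08 (55.4% of all genes were positive, with a median of 0.08), and in females 40, with a median of -0.56 (43% of all genes, with a median of -0.09). The difference between the sexes was not tested for the list. The other snoRNA host genes of the *Uhg* series were not called either. *Uhg1* had a log2 fold change of 1.06, *Uhg2* of 0.78 and *Uhg8* of 0.85, with an adjusted p of 0.325 each. In this list 6 of the 7 genes were positive, against 48.4% of all genes, with *Uhg4* as the exception. In the heat shock list of 21 tested genes, 10 had a positive and 11 a negative fold change (median -0.24). *Hsp23* came nearest to a call there (1.54, adjusted p = 0.0505). The stress-responsive *lncRNA:Hsromega* lay lower in all *208-ΔA* libraries without passing (1723 to 2052 CPM against 2378 to 6174 CPM, log2 fold change -0.96, adjusted p = 0.325). With the chemoreceptor level as covariate *lncRNA:Hsromega* passed (-1.34, adjusted p = 0.0309).

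**Figure D4:**
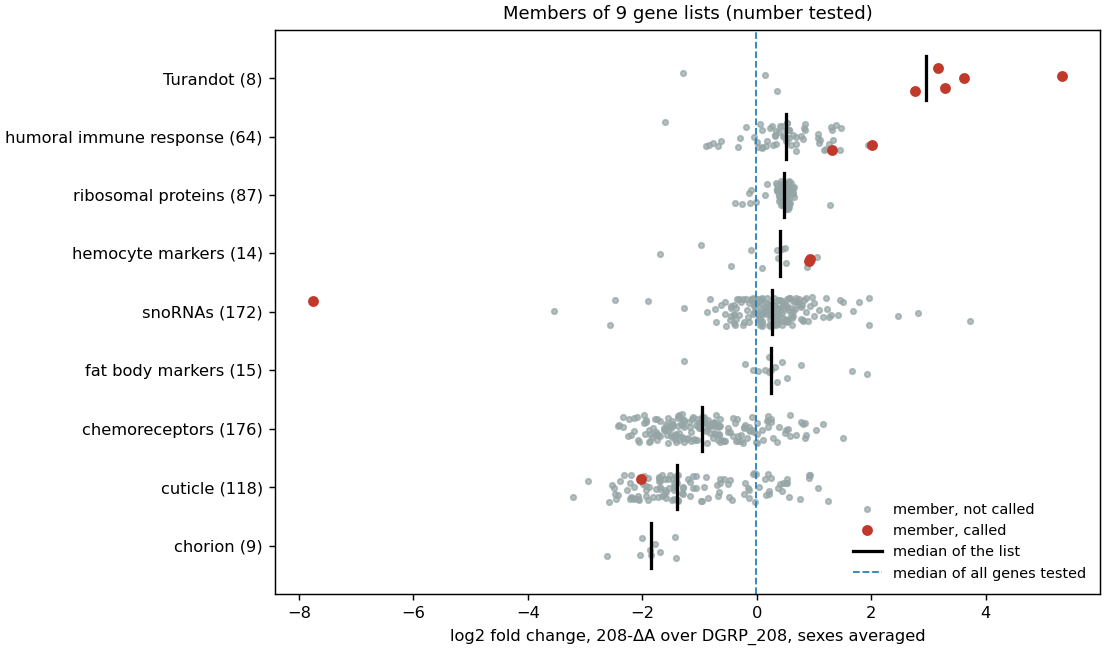
The log2 fold change of *208-ΔA* over DGRP_208, sexes averaged, for each tested member of 9 gene lists, with called genes in red, list medians as black bars and the median of all genes as a dashed line. The Turandot median lies at 2.96, the cuticle median at -1.39 and the chorion median at -1.85.

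The study's own choice of genes was read last. Of the 17 genes that the study lists at its stricter threshold, 3 were called higher (*CtsL3*, *BaraB* and *Ilp6*) and 2 lower (*snoRNA:Or-aca5* and *CG15022*) in *208-ΔA*. Of the 45 genes of its cluster 3, 9 were called, all higher, and all 45 had a positive fold change with a median of 0.89. Both lists were chosen on these samples and are no independent evidence of a direction. The first list also holds *Uhg4* and *snoRNA:Psi28S-2949*, which the study places among its leading genes and which were not called here. *Boot*, which was called here, is reported by the study as not differentially expressed, by its own test over all lines. Among the other genes of the first list that were not called was *Nepl5*, a neprilysin-like peptidase. *Nepl5* was at 52.2 to 80.2 CPM in *208-ΔA* and 132 to 153 CPM in DGRP_208 (log2 fold change -0.99, adjusted p = 0.0664). *Ugt37A2*, a glycosyltransferase of detoxification, was at 27.9 to 34.1 CPM against 41.3 to 61.2 CPM (-0.76, adjusted p = 0.0664).

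The values of the 27 genes in the other deletion lines are given side by side, since all 3 comparisons share the DGRP_208 libraries. *TotM* had log2 fold changes of 5.33 in *208-ΔA*, 4.24 in *208-ΔF* and 3.44 in *208-ΔG*, *Diedel* of 5.41, 4.35 and 3.56, *CtsL3* of 2.19, 2.17 and 1.54, and *snoRNA:Or-aca5* of -7.75, -8.63 and -7.85. *Arc1* had 1.46, 1.21 and 0.15, and *Hml* 0.92, 0.45 and -0.21. For *Boot* the values were -2.06, -1.76 and -1.04. *208-ΔA* was therefore tested against the mean of *208-ΔF* and *208-ΔG*, a contrast without DGRP_208. The chemoreceptor level was 0.350 to 0.930 RPKM in *208-ΔA*, 0.724 to 2.27 RPKM in *208-ΔF* and 2.86 to 5.81 RPKM in *208-ΔG*. With this level as covariate, line and the library property it measures therefore cannot be fully told apart. The contrast called 4027 of all genes (24.8%), 2125 higher (13.1%) and 1902 lower (11.7%) in *208-ΔA*. With scaling to library size alone it called 596 higher and 4039 lower. The count was 0 without *208-ΔA* female replicate 1, *208-ΔA* male replicate 1 or *208-ΔA* male replicate 2. It was 1 to 4 without *208-ΔA* female replicate 2, *208-ΔF* female replicate 2, *208-ΔF* male replicate 1, *208-ΔG* female replicate 1 or either *208-ΔG* male, and 2 with the chemoreceptor level as covariate, when 795 genes had an unadjusted p under 0.05.

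By this contrast, *Srg3* (log2 difference -2.04, standard error 0.19, adjusted p = 0.00841), *lncRNA:CR32368* (-2.84, adjusted p = 0.0457) and *Drip* (-0.81, adjusted p = 0.0457) were lower in *208-ΔA*, as were *Cpr78Cc* (-1.58) and *CG15022* (-1.47, adjusted p = 0.0457 for both). *Srg3* was at 30.9 to 52.4 CPM in *208-ΔF* and 26.1 to 43.2 CPM in *208-ΔG*, so that all 4 *208-ΔA* libraries, at 11.2 CPM or less, were below every other library of the study. *lncRNA:CR32368* was at 15.1 to 31.7 CPM and 7.52 to 19.0 CPM there, against 2.61 CPM or less in *208-ΔA*. *Drip* was at 43.4 to 53.3 CPM and 34.1 to 40.5 CPM there, against 27.4 CPM or less. The genes *Drip* and *lncRNA:CR32368* were the ones that passed with the chemoreceptor level as covariate (adjusted p = 0.0218 for both), where *Srg3* had a log2 difference of -1.87 (adjusted p = 0.0574).

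**Figure D5:**
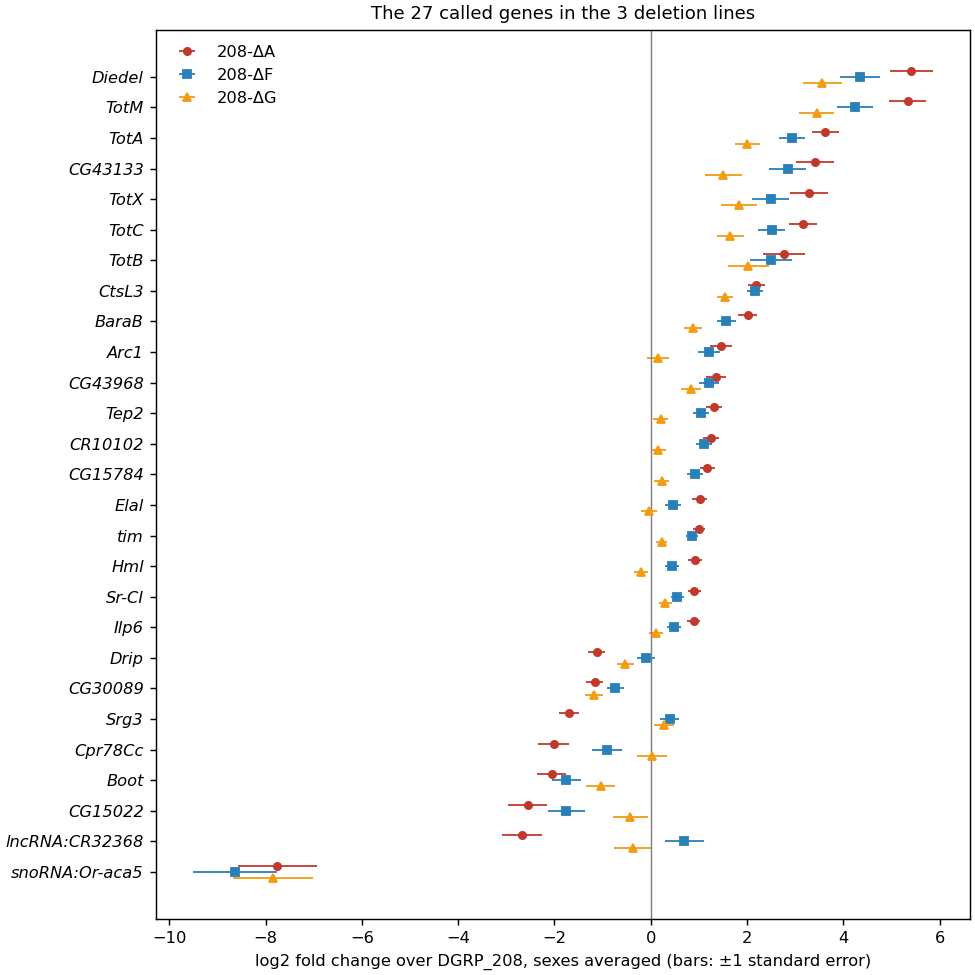
The log2 fold change over DGRP_208, sexes averaged, of the 27 genes called in *208-ΔA*, shown for *208-ΔA*, *208-ΔF* and *208-ΔG* with bars of 1 standard error. The lines share their DGRP_208 libraries. *Srg3* is at -1.71 in *208-ΔA* and at 0.39 and 0.27 in the other lines.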

How the data were processed

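RNA of whole flies was sequenced in 16 libraries. By the methods, the authors filtered reads with AfterQC, aligned them to the dm6 genome with GSNAP, and counted uniquely aligned reads per gene with featureCounts of Subread. The deposited counts are whole numbers without normalization for 17490 genes, of which 17288 identifiers matched a symbol. Groups came from the labels. Coordinates are those of the Ensembl BDGP6 annotation, which shares the dm6 assembly.

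The filter kept genes whose median count over the 16 libraries reached 2, and 1 mean per group of line and sex was fitted with edgeR 4.0.16 in R 4.3.3 (TMM, quasi-likelihood, 8 residual degrees of freedom). Contrasts between *208-ΔA* and DGRP_208 were formed in each sex, averaged, and as their difference. Counting error adds to the spread between libraries mainly in genes with few reads.

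The genes named are those called, the *Uhg4* locus, genes called in 1 sex (up to 10 per direction), up to 6 with the smallest p for the sex difference, up to 10 per direction against *208-ΔF* and *208-ΔG*, the 17 genes of the study and, from each list, the 4 genes of smallest p. The other members of the Turandot, JAK/STAT, immune and hemocyte lists that are named, and *Srg1* and *Srg2*, were picked with their values in view. The comparison, genes and lists were chosen with earlier results of these data known.

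Alternatives were another threshold, scaling, filter and tool (DESeq2 1.42.0, limma-voom of limma 3.58.1, a linear model on GeTMM values), fewer libraries, a replicate block and the chemoreceptor level as covariate. A fit without *208-ΔA* male replicate 2 and DGRP_208 male replicate 2 was added after seeing the data.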

Additional observations from a re-analysis of the deposited data

Results flagged for a closer look

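Of the 27 genes called against DGRP_208, 21 also passed edgeR's test of *208-ΔA* against the mean of *208-ΔF* and *208-ΔG*. This contrast has the *208-ΔA* libraries in common with the comparison by which the genes were chosen, so a larger size in *208-ΔA* is favoured by the choice. It was passed by 24.8% of all genes, and it called 0 genes without *208-ΔA* female replicate 1 or either *208-ΔA* male and 2 genes with the chemoreceptor level as covariate.

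Among the stress and immune genes, the log2 difference was 1.49 for *TotM*, 1.46 for *Diedel*, 1.15 for *TotA*, 1.12 for *TotX*, 1.08 for *TotC*, 0.79 for *BaraB* and 0.68 for *Tep2*. The hemocyte genes *Hml* and *Sr-CI* had 0.80 and 0.48. *CG43133* had 1.23, *Elal* 0.80, *Arc1* 0.78, *CR10102* 0.62, *CG15784* 0.60, *Ilp6* 0.59 and *tim* 0.45. On the lower side, *lncRNA:CR32368* had -2.84, *Srg3* -2.04, *Cpr78Cc* -1.58, *CG15022* -1.47 and *Drip* -0.81. The adjusted p was 0.00841 for *Srg3* and 0.0457 for each of the other 20 genes. With the chemoreceptor level as covariate, *Drip* and *lncRNA:CR32368* passed (adjusted p = 0.0218 for both) and the other 19 did not. This library property also differed between the deletion lines, and its part in the differences was not tested further.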

How the results depend on the processing

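All 27 genes kept their direction under every alternative run, and *TotM*, *TotA* and *snoRNA:Or-aca5* were called under each, except that *snoRNA:Or-aca5* was not called without both male libraries named below. The counts moved more. With the sexes averaged, the count of 27 became 51 at an adjusted p under 0.1, 241 with DESeq2, 43 with the chemoreceptor covariate, 6 with the libraries of the 2 lines alone and 5 with line plus sex there. In females, 8 became 71 with DESeq2, 17 with the linear model on GeTMM values, 2 with the 2 lines alone, 0 with females alone and 31 with the covariate. In males, 7 became 117 with DESeq2, 2 with males alone and 15 with the covariate. For the sex difference, 0 became 12 with DESeq2 and 9 with either GeTMM values or the covariate. Against *208-ΔF* and *208-ΔG*, 4027 became 8512 at an adjusted p under 0.1, 2 with upper-quartile scaling, 7660 with DESeq2, 3 with GeTMM values, 7224 with the 12 deletion libraries alone and 2 with the covariate. Without both *208-ΔA* male replicate 2 and DGRP_208 male replicate 2, a fit added after seeing the data, the counts were 4 averaged, 0 in females, 1 in males and 0 against the other lines. Leaving out 1 library gave 9 to 27 averaged, 0 to 11 in females, 1 to 8 in males, 0 to 0 for the sex difference and 0 to 7315 against the other lines. The causes were not tested. Scaling to library size alone moved the median of all genes by -0.266 on the log2 scale.

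Replicate numbers did not pair the samples: over 28 pairs of groups, the correlation of same-numbered deviations ran from -0.771 to 0.596. With a replicate block the counts were 14 averaged, 5 in females, 7 in males, 0 for the sex difference and 2 against the other lines.

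The labels give 2 libraries per line and sex, and the spread was estimated over all 16. *CG43133*, *TotB*, *Uhg4* and most snoRNAs of *Uhg4* had few reads, so their values carry counting error as well.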

Other observations

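*Sting*, the receptor of the pathway through which *Srg3* is induced, was read after the values of *Srg3* had been seen. It was at 8.25, 8.83, 6.25 and 7.59 CPM in *208-ΔA* and at 20.6, 21.9, 8.04 and 13.1 CPM in DGRP_208. The female libraries were well apart, and the highest *208-ΔA* library lay above the lowest DGRP_208 library. The log2 fold change against DGRP_208 was -0.96 (standard error 0.21) and did not pass edgeR's test (adjusted p = 0.178). It was at 14.6 to 21.2 CPM in *208-ΔF* and 13.9 to 21.0 CPM in *208-ΔG*. The log2 difference of *208-ΔA* from these lines was -1.15 (edgeR, adjusted p = 0.0457). That contrast called 24.8% of all genes, and its calls depended on single libraries. With the chemoreceptor level as covariate it called 2 genes, and *Sting* was not among them. *Srg1* and *Srg2*, named after the same pathway, had log2 fold changes of 0.16 and -0.29 against DGRP_208 (adjusted p = 0.659 and 0.491).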
